A study of Gallus gallus with 5 samples.

Results

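PTPN13, CORO2B, ANXA11, ENC1 and DMD are 5 of the 24356 genes measured in granulosa cells from hen follicles of 6 to 8 mm, and they encode proteins that lie at the actin cytoskeleton or at membranes. They were chosen by gene name, after earlier results of these data were known, because they were lower in hens fed *ad libitum* (FF) than in hens on restricted feed (RF). Their FF against RF differences are therefore descriptions of how they were picked. Where a threshold is named for these genes, it is part of that description and no test of them. Each name matched a single gene in the file.

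The study asked how feed allowance changes the granulosa cell transcriptome at the stage of follicle selection in broiler breeder hens (Gallus gallus), and it gave libraries from 2 FF and 3 RF hens. From 28 weeks of age, FF hens had free access to feed and RF hens stayed on a restricted allowance, in both cases for 6 weeks. Each diet had a pen of its own. Granulosa cells from 5 to 6 follicles were pooled within each hen, and poly(A)-selected RNA was sequenced as 1 library per hen. FF hens had been picked for sequencing because they had many preovulatory follicles and RF hens because they had fewer, so diet, pen and follicle number cannot be told apart. The authors discarded an additional FF library after clustering, and it was not analysed here.

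Granulosa cells form the layer of the follicle that lies against the oocyte, and they stay in contact with each other and with a basement membrane while the follicle grows. Their shape and contacts depend on the cortical cytoskeleton, the mesh of actin under the plasma membrane. Dystrophin, the product of DMD, ties this actin to a glycoprotein complex in the membrane that binds laminin, and it is best known from muscle. Coronins bind actin filaments, annexins bind phospholipid membranes when calcium is present, BTB-kelch proteins such as ENC1 bring substrates to a cullin ubiquitin ligase, and PTPN13 is a large tyrosine phosphatase whose FERM and PDZ domains place it beneath the membrane.

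Values are the authors' normalized counts per gene. They summed to 28891495 to 29491091 in the FF libraries and to 25929234 to 27277087 in the RF libraries, and the spacing of the low values gave an estimate of 21400000 to 33500000 reads in genes per library. The granulosa markers FOXL2 and GATA4 were abundant in all 5 libraries, at 13657 to 27392 and 29524 to 38730 normalized counts, while LGR5 had 15 to 21. Of the 17 granulosa markers tested, 5 were higher in FF hens by limma (CYP11A1, INHA, INHBB, NR5A1 and STAR), 0 were lower, and 11 had an unadjusted p under 0.05. The log2 fold change was positive for 13 and negative for 4. Among the negative ones were AMH (−0.62) and FST (−0.63), both at an unadjusted p under 0.05 in limma. These were not the lowest, since the log2 fold changes of this list reached −1.42. Over all genes tested, 0.842% were higher, 0.241% were lower and 17.8% had an unadjusted p under 0.05. The summed level of the granulosa markers was 265251 to 318766 in FF hens and 180321 to 196651 in RF hens. This sum includes INHA, at 36972 to 73862 in FF hens and 2980 to 3440 in RF hens. It also includes INHBB, at 52475 to 54259 in FF hens and 11080 to 19679 in RF hens. Of 18 tested markers of theca and stroma, which lie beyond the basement membrane, 12 were highest in RF replicate 1, and CYP17A1, a steroidogenic enzyme of theca, had 1794 normalized counts there and 73 to 207 in the remaining 4 libraries. Fold changes are given as log2 values of FF minus RF, fitted with limma on log2(normalized count + 1), so that negative values are lower in FF hens.

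All 5 genes lay lower in both FF libraries than in any RF library, with FF means at 36.2% to 40.4% of the RF means. This separation was fixed by the choice of the genes. It was met by 16.9% of the 13305 genes tested, those with a mean of at least 10 normalized counts. With a group mean of 200 or more, a log2 fold change past 1 in size and a limma adjusted p below 0.05, 20 genes (0.150% of those tested) were lower in FF hens, these 5 among them, and 93 genes (0.699%) were higher. Their own log2 fold changes ran from −1.46 to −1.30, with a median of −1.35 against 0.01 over all genes tested. In bulk RNA, fewer cells that express a gene and less of its RNA per cell cannot be told apart.

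**Figure D1:**
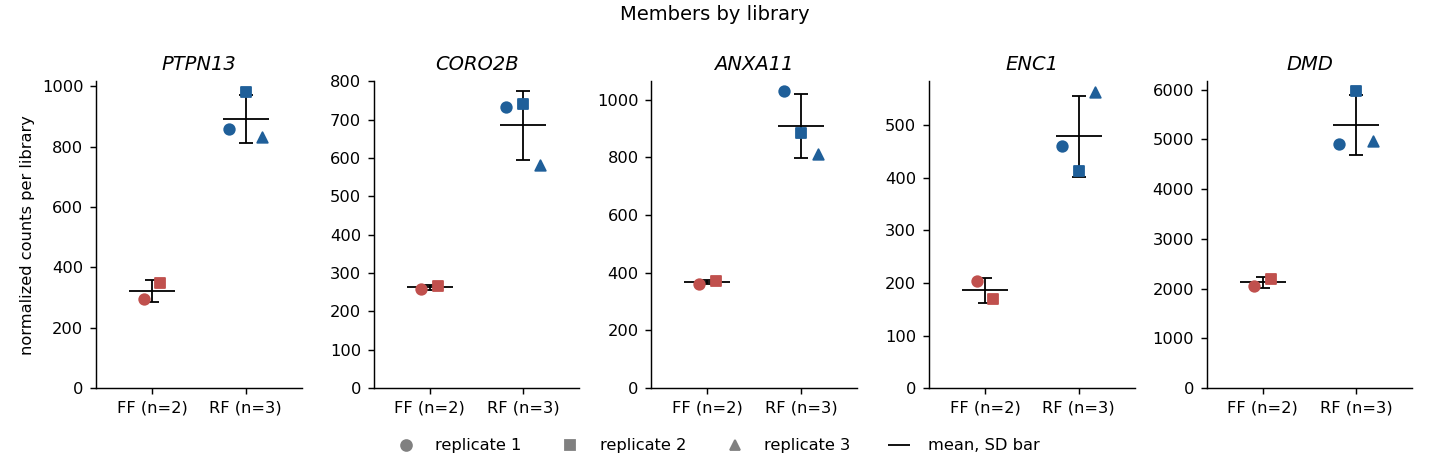
Normalized counts (y axis, from 0) of the 5 genes in each library, with FF in red, RF in blue, a marker shape for each replicate, and the group mean with its SD as a black line and bar. In every panel both FF libraries lie below the 3 RF libraries, for example at 2047 and 2201 against 4912 to 5975 for DMD.

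DMD (ENSGALG00000016281), which encodes dystrophin, had 2047 and 2201 normalized counts in FF replicates 1 and 2. In RF replicates 1, 2 and 3 it had 4912, 5975 and 4965. RF replicate 2 was the highest library and the other RF libraries were almost level. FF hens averaged 2124 ± 109 (SD, n = 2) and RF hens averaged 5284 ± 599 (SD, n = 3), so that the RF mean was 2.49 times the FF mean (log2 fold change −1.31, standard error 0.14). Dystrophin has full-length forms and short forms that start at internal promoters, and counts per gene do not say which form was present.

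PTPN13 (ENSGALG00000011078) encodes the large tyrosine phosphatase, which in mammals binds the death receptor Fas through a PDZ domain. It had 297 and 349 normalized counts in FF replicates 1 and 2, and 858, 983 and 833 in RF replicates 1, 2 and 3. As for DMD, RF replicate 2 was the highest library and FF replicate 1 the lowest. FF hens averaged 323 ± 36.8 (SD, n = 2) and RF hens averaged 891 ± 80.4 (SD, n = 3), with the RF mean 2.76 times the FF mean (log2 fold change −1.46, standard error 0.17). This was the widest distance between the groups among the 5 genes, with the lowest RF library at 2.39 times the highest FF library.

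CORO2B (ENSGALG00000008043) encodes a coronin that in mammals has been found with vinculin at focal adhesions. It had 258 and 267 normalized counts in FF replicates 1 and 2 and 733, 741 and 582 in RF replicates 1, 2 and 3. The FF libraries differed by a factor of 1.03, whereas RF replicate 3 lay below the other RF libraries. FF hens averaged 263 ± 6.36 (SD, n = 2) and RF hens averaged 685 ± 89.6 (SD, n = 3), and the RF mean was 2.61 times the FF mean (log2 fold change −1.37, standard error 0.18).

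ANXA11 (ENSGALG00000043826) encodes annexin A11, which in mammals takes part in the last step of cell division and ties RNA granules to lysosomes. It had 362 and 373 normalized counts in FF replicates 1 and 2 and 1031, 883 and 812 in RF replicates 1, 2 and 3. RF replicate 1 was the highest library, unlike for the other members. FF hens averaged 368 ± 7.78 (SD, n = 2) and RF hens averaged 909 ± 112 (SD, n = 3), with the RF mean 2.47 times the FF mean (log2 fold change −1.30, standard error 0.17).

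ENC1 (ENSGALG00000014930) encodes an actin-binding BTB-kelch protein first described in the developing nervous system. It had 203 and 169 normalized counts in FF replicates 1 and 2 and 461, 413 and 564 in RF replicates 1, 2 and 3. The order of the libraries differed from that of the other genes, since FF replicate 2 was the lowest and RF replicate 3 the highest. FF hens averaged 186 ± 24.0 (SD, n = 2) and RF hens averaged 479 ± 77.2 (SD, n = 3), and the RF mean was 2.58 times the FF mean (log2 fold change −1.35, standard error 0.22). The lowest RF library was 2.03 times the highest FF library, the narrowest distance among the 5 genes.

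On the log2 scale the RF libraries of a gene spanned 0.24 (PTPN13) to 0.45 (ENC1) and the FF libraries 0.04 (ANXA11) to 0.26 (ENC1), while the lowest RF library lay 1.02 (ENC1) to 1.25 (PTPN13) above the highest FF library. The coefficient of variation among RF hens was 9.02% to 16.1%, where counting error alone would give 1.27% to 5.13%. In FF hens it was 2.12% to 12.9%, against a counting error of 2.04% to 7.56%. For CORO2B (2.42%) and ANXA11 (2.12%) it lay below the counting error of either FF library, so the closeness of these FF libraries is no measure of a small spread between hens. These errors rest on an estimated 175 to 6214 reads per gene and library. Among the 9405 tested genes with a group mean of at least 200, between 70 (PTPN13) and 102 (ANXA11) genes had a lower log2 fold change.

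Once the mean of each gene was removed, the profiles of PTPN13 and DMD were the closest pair, with a root mean square difference of 0.09 on the log2 scale over the 5 libraries. CORO2B and ANXA11 also differed by 0.09. ENC1 stood apart from the other members, at 0.24 from ANXA11 and 0.28 from CORO2B. The members thus shared the step between the FF and RF libraries, by choice, while their order among the RF hens differed.

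**Figure D2:**
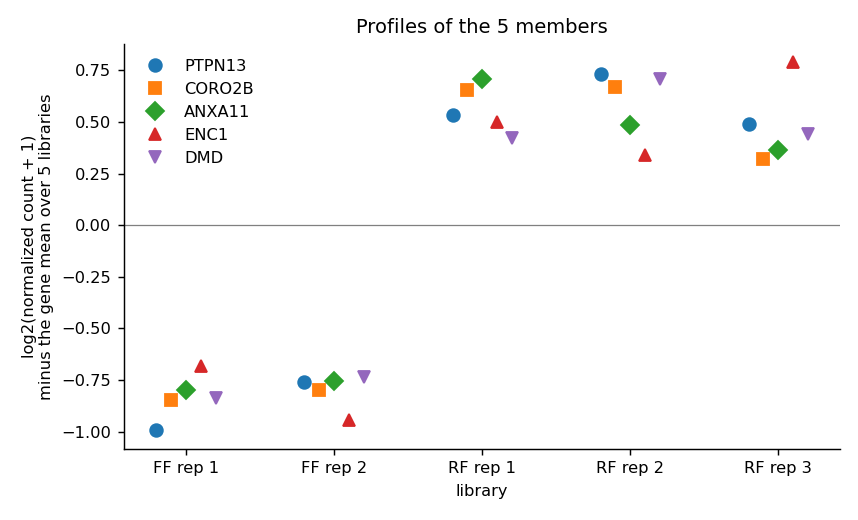
Log2(normalized count + 1) minus the mean of each gene over the 5 libraries (y axis) by library (x axis), with a marker and colour for each gene. All 5 genes lie below 0 in both FF libraries and above 0 in the 3 RF libraries, and ENC1 is the highest point in RF replicate 3 while ANXA11 is the highest in RF replicate 1.

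Genes outside the group had profiles as close. Ranks of nearness given here are among genes with a symbol. Nearest to PTPN13 by the root mean square difference over 5 libraries were GNAL, a G protein alpha subunit (0.06), and RGS16, a regulator of G protein signalling (0.09), followed by DMD. GNAL was a gene of low level, with 22 and 28 normalized counts in FF hens and 67, 76 and 71 in RF hens. RGS16 had 555 and 664 normalized counts in FF hens and 1520, 2069 and 1507 in RF hens, so that RF replicate 2 was again the highest.

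Nearest to DMD was VAT1L (0.09), with 1536 and 1834 normalized counts in FF replicates 1 and 2 and 3662, 4391 and 3420 in RF replicates 1, 2 and 3. FADS2, a fatty acid desaturase, was the third nearest to DMD (0.10) and to CORO2B (0.11). Nearest to CORO2B was ANTXR2, a receptor for anthrax toxin (0.08), with 223 and 205 normalized counts in FF hens and 554, 558 and 432 in RF hens. Like CORO2B, ANTXR2 and FADS2 were lowest among RF hens in RF replicate 3.

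ANXA11 was nearest to RUNDC3B, at 6 to 19 normalized counts in the 5 libraries (0.08), then to CORO2B and to ATP8A2, a phospholipid flippase (0.10). ATP8A2 had 1210 and 1209 normalized counts in FF hens and 2986, 2640 and 2237 in RF replicates 1, 2 and 3. Among genes with a symbol, ENC1 was nearest to GHR, the growth hormone receptor (0.12), and PIK3IP1, an inhibitor of phosphatidylinositol 3-kinase (0.12). LMO7, a protein of actin-linked cell junctions, followed (0.12). LMO7 had 195 and 183 normalized counts in FF hens and 482, 371 and 646 in RF hens, with RF replicate 3 the highest as for ENC1. Between 30 (PTPN13) and 48 (ANXA11) other tested genes lay within a difference of 0.2 of a member.

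Most relatives and partners of the 5 genes did not pass the test. In 9 lists of such genes, 189 genes were tested, of which 1 was lower in FF hens and 3 were higher at an adjusted p under 0.05 from limma, against 0.241% and 0.842% of all genes tested. At an unadjusted p under 0.05, 27 of the 189 were lower (14.3%) and 28 higher (14.8%), against 8.22% and 9.58% of all genes tested, or 17.8% in either direction. Their median log2 fold change was 0.00 against 0.01 over all genes tested. Every RF library lay above every FF library in 46 of them and every FF library above every RF library in another 46, which is 24.3% in each direction against 16.9% and 19.3% of all genes tested. The lists were written with results of these data known, and relatives named for kinship (UTRN, DAG1, SNTG1, CORO1C, ANXA6, ANXA7, PTPN3, EFNB2 and CUL3) and the cell markers CYP17A1, PDGFRA, MYOD1, LGR5, ACTA2 and COL1A2 were chosen after their values were seen.

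**Figure D3:**
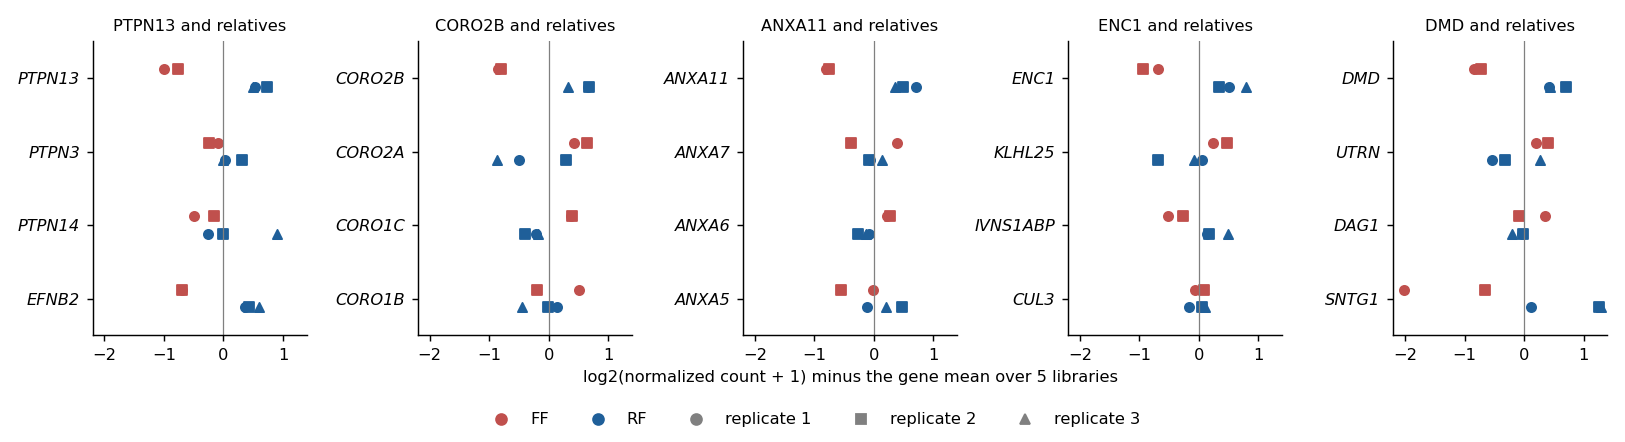
Log2(normalized count + 1) minus the mean of each gene over the 5 libraries (x axis) for each member in the top row of a panel and 3 relatives or partners beneath it, with FF in red, RF in blue and a marker shape for each replicate. UTRN, CORO2A and KLHL25, relatives of DMD, CORO2B and ENC1, do not lie to the left in FF hens as the members do, whereas EFNB2 does.

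Of 18 tested genes of the dystrophin complex, 0 passed the test in either direction. In limma 4 had an unadjusted p under 0.05, against 17.8% of all genes tested. The median log2 fold change of the list was −0.04. UTRN, which encodes utrophin, the close relative of dystrophin, had 8195 and 9460 normalized counts in FF replicates 1 and 2 and 4948, 5764 and 8613 in RF replicates 1, 2 and 3. The groups overlapped, with a log2 fold change of 0.49 (SE 0.24, limma adjusted p = 0.34). DAG1, which encodes dystroglycan, the membrane partner of dystrophin, had 17465 and 12775 normalized counts in FF hens and 13233, 13505 and 11755 in RF hens, and these groups overlapped too.

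SNTG1, a syntrophin that binds dystrophin, had the lowest log2 fold change of the list at −2.24 (SE 0.56, limma adjusted p = 0.111). Its normalized counts were 13 and 35 in FF replicates 1 and 2 and 61, 136 and 139 in RF replicates 1, 2 and 3. It lay on the side of DMD without passing the test, while the sarcoglycan SGCB had 337 and 178 normalized counts in FF hens and 133 to 218 in RF hens, with overlap.

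The list of coronins, the actin-nucleating Arp2/3 complex and other actin regulators such as WASL, CTTN and CFL2 had 21 tested genes. Of these, 0 passed the test (limma, with 7 at an unadjusted p under 0.05, against 17.8% of all genes tested). The median log2 fold change was 0.18. Every FF library lay above every RF library in 10 of the 21 and the reverse held in 5, against 19.3% and 16.9% of all genes tested. CORO2A, the closest relative of CORO2B, had 3147 and 3687 normalized counts in FF replicates 1 and 2 and 1670, 2884 and 1292 in RF replicates 1, 2 and 3. Here both FF libraries lay above the RF libraries, at a log2 fold change of 0.89 (SE 0.32, limma adjusted p = 0.222). CORO1C was likewise higher in both FF libraries, at 4543 and 4601 against 2658 to 3079 normalized counts (log2 fold change 0.65, SE 0.12, limma adjusted p = 0.0674). WASF3, an activator of Arp2/3, had 396 and 511 normalized counts in FF hens and 188 to 293 in RF hens. The difference between CORO2B and these relatives was not tested.

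Of 10 tested annexins and annexin partners, 0 passed the test, with a median log2 fold change of 0.09. In limma 2 had an unadjusted p under 0.05, against 17.8% of all genes tested. ANXA7, which like ANXA11 has a long amino-terminal region, had 186 and 108 normalized counts in FF hens and 134 to 155 in RF hens. ANXA5 had 3086 and 2136 in FF replicates 1 and 2 and 2880, 4351 and 3622 in RF replicates 1, 2 and 3, so that the groups overlapped. ANXA6 and S100A10, a partner of annexin A2, lay higher in both FF libraries, with log2 fold changes of 0.41 (limma adjusted p = 0.152) and 0.82 (limma adjusted p = 0.0994).

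Of 35 tested BTB-kelch genes and genes of the cullin 3 ligase, 0 passed the test, with a median log2 fold change of 0.06. In limma 7 had an unadjusted p under 0.05, against 17.8% of all genes tested. KLHL25, also known as ENC2, had 736 and 864 normalized counts in FF replicates 1 and 2 and 647, 385 and 587 in RF replicates 1, 2 and 3. IVNS1ABP, a BTB-kelch protein that binds actin, had 3085 and 3704 in FF hens and 4876, 4970 and 6256 in RF hens (log2 fold change −0.66, SE 0.16, limma adjusted p = 0.106). RF replicate 3 was its highest library, as for ENC1. CUL3, the scaffold of the ligase, was nearly level at 2568 to 3102 normalized counts in the 5 libraries.

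Of 11 tested phosphatases of the PTPN family, 0 passed the test, and of 17 tested partners of PTPN13 known from mammals, 0 passed. In limma 2 of the 11 and 5 of the 17 had an unadjusted p under 0.05, against 17.8% of all genes tested. PTPN3, which also joins FERM and PDZ domains to a phosphatase, had 169 and 152 normalized counts in FF hens and 180 to 225 in RF hens (log2 fold change −0.28, limma adjusted p = 0.56). PTPN14, a FERM-domain phosphatase, had 1191 and 1506 in FF hens and 1397, 1667 and 3136 in RF hens, and PTPN9 had 1755 and 1136 in FF hens and 792 to 1075 in RF hens. Among the partners, EFNB2, a membrane-bound ephrin, had 95 normalized counts in each FF library and 200, 209 and 234 in RF replicates 1, 2 and 3 (log2 fold change −1.16, SE 0.22, limma adjusted p = 0.0678). CTNNB1, which encodes beta-catenin, had 8907 and 10636 in FF hens and 4737 to 7126 in RF hens, and PDLIM4, which binds alpha-actinin, had 608 and 310 in FF hens and 188 to 341 in RF hens.

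**Figure D4:**
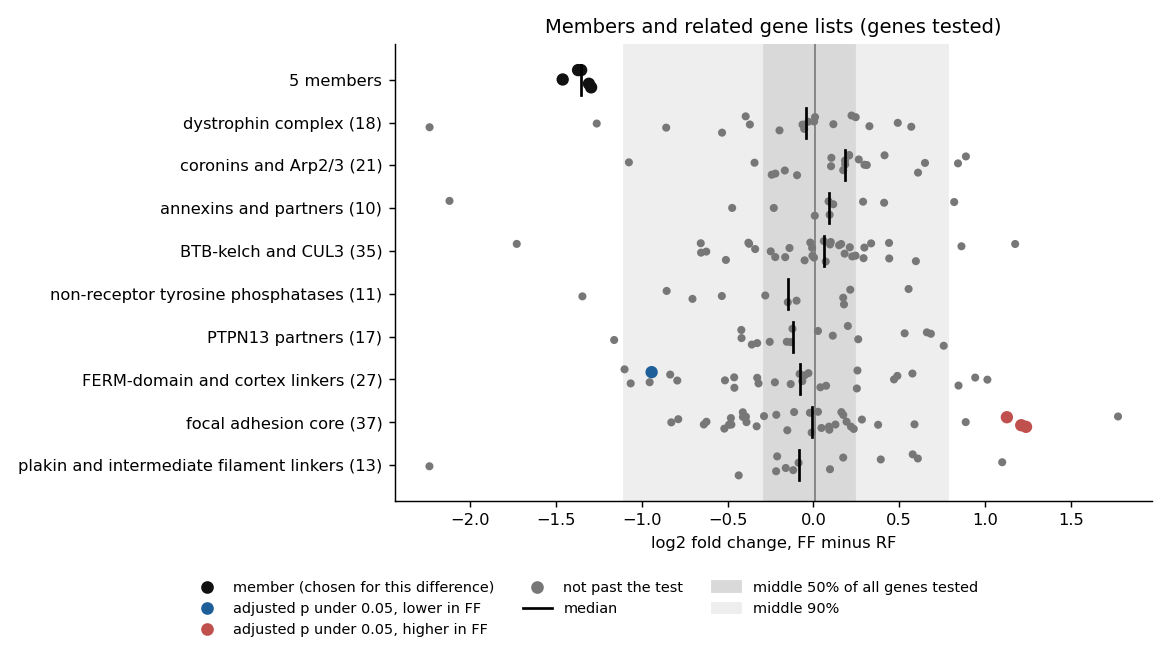
Log2 fold change of FF minus RF (x axis) of the 5 members and of each tested gene of the 9 lists, with the number tested in parentheses, a black line at each median and grey bands for the middle 50% and 90% of all genes tested. The list medians lie between −0.15 and 0.18, and the coloured points past the test include ANK3, lower in FF hens, and PXN and VCL, higher in FF hens.

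Among proteins that tie membranes to cortical actin, ANK3 was lower in FF hens, and 0 of the other 26 tested genes of that list passed the test (limma, with 10 of the 27 at an unadjusted p under 0.05). Over all genes tested, 0.241% passed as lower and 17.8% had an unadjusted p under 0.05. In 10 of the 27 every RF library lay above every FF library, and the reverse held in 6. Over all genes tested these shares were 16.9% and 19.3%. The log2 fold change was negative for 17 of the list and positive for 10. ANK3 encodes ankyrin-G, which anchors membrane proteins to spectrin. It had 888 and 1036 normalized counts in FF replicates 1 and 2 and 1977, 1761 and 1807 in RF replicates 1, 2 and 3 (log2 fold change −0.94, SE 0.14, limma adjusted p = 0.0396). The groups did not overlap. When single libraries were left out, its adjusted p was 0.0718 to 0.225, so the call needed every library.

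Of 37 tested genes of focal adhesions, where integrins meet actin, 3 passed as higher in FF hens and 0 as lower, with 34 short of the threshold (14 of the 37 at an unadjusted p under 0.05). Over all genes tested, 0.842% passed as higher, 0.241% as lower and 17.8% had an unadjusted p under 0.05. The list as a whole did not lean to FF hens, with 19 negative and 18 positive log2 fold changes and a median of −0.01. Every RF library lay above every FF library in 10 of its 37 genes and the reverse held in 9, against 16.9% and 19.3% of all genes tested. PXN, the adhesion scaffold paxillin, had 5406 and 4692 in FF hens and 2317, 2228 and 1992 in RF hens (log2 fold change 1.21, SE 0.13, limma adjusted p = 0.0223). Every FF library was far above every RF library, opposite to the direction of the 5 members.

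VCL encodes vinculin, the adhesion protein with which CORO2B has been found in mammals. It had 3758 and 3947 normalized counts in FF hens and 1264, 1756 and 1954 in RF replicates 1, 2 and 3 (log2 fold change 1.24, SE 0.20, limma adjusted p = 0.0496). Its call was at the threshold, with a limma adjusted p of 0.0505 with equal library totals and of 0.0512 with robust variance. PXN and VCL did not pass without FF replicate 1, FF replicate 2, RF replicate 1 or RF replicate 2 (limma adjusted p 0.0652 to 0.246). Of 13 tested plakins, intermediate filaments and their linkers, 0 passed. In limma 4 of the 13 had an unadjusted p under 0.05, against 17.8% of all genes tested. SYNC, a filament-binding protein, had 622 and 610 normalized counts in FF hens and 163 to 434 in RF hens. PKP4, a desmosomal and junctional plakophilin, had 1372 and 1763 in FF hens and 898 to 1166 in RF hens.

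Some markers of other cells also differed between the FF and RF libraries or in single libraries. Of 18 tested markers of theca and stroma, 13 had a negative log2 fold change, as the members did, with a median of −1.90, the same with PDGFRA at its bound of 3 normalized counts per FF library. Every RF library lay above every FF library in 9 of them and the reverse held in 1, against 16.9% and 19.3% of all genes tested. Of the 18 markers, 0 passed the test (limma, with 7 at an unadjusted p under 0.05, against 17.8% of all genes tested). Their summed normalized counts were 9869 to 10112 in FF hens and 7264 to 11151 in RF hens, of which ACTA2 and COL1A2, with positive log2 fold changes, made up 38.4% to 67.8%. PDGFRA, a receptor of stromal cells, was listed at 0 in both FF libraries and at 56, 14 and 7 in RF replicates 1, 2 and 3. Without RF replicate 1, where 12 of the 18 were highest, the log2 fold changes of the members were −1.49 (PTPN13), −1.32 (CORO2B), −1.20 (ANXA11), −1.38 (ENC1) and −1.36 (DMD). The groups of the members did not overlap, by choice, so leaving out this library could not reverse a sign. These values are therefore no test of the part of theca and stroma. Muscle markers, of interest for dystrophin, had summed counts of 3843 to 5171 in FF hens and 2745 to 5657 in RF hens, 4 of 6 had a negative log2 fold change, 0 passed (limma, 0 at an unadjusted p under 0.05), and MYOD1, which specifies skeletal muscle, was at 6 to 21 in the 5 libraries.

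Of 10 tested rows of the oocyte list, 9 had a negative log2 fold change (median −0.73), and 8 were highest in RF replicate 1. In limma 6 had an unadjusted p under 0.05, against 17.8% of all genes tested. Every RF library lay above every FF library in 5 rows and the reverse held in 1, against 16.9% and 19.3% of all genes tested. The egg coat gene ZP2 was the single row to pass, as lower in FF hens, against 0.241% of all genes tested. It had 3686 and 3457 normalized counts in FF hens and 7539, 6829 and 7069 in RF hens (limma adjusted p = 0.0229). The summed oocyte list was nevertheless higher in FF hens, at 181407 to 206134 against 95759 to 118665, since ZP3, which granulosa cells of the hen also make, made up most of it. Of 9 tested white blood cell markers, 6 had a negative log2 fold change (median −0.88). Every RF library lay above every FF library in 4 of them and below in 2, against 16.9% and 19.3% of all genes tested. The sum of these markers was, however, 973 to 1305 in FF hens and 836 to 1043 in RF hens. Of 9 tested endothelial markers, 7 had a negative log2 fold change (median −0.55) and 5 were highest in RF replicate 1. Their sums were 4795 to 5526 in FF hens and 3993 to 5443 in RF hens. Most markers of both lists thus lay on the side of the members. Of 7 tested surface epithelium markers, 3 had a negative log2 fold change (median 0.08), with sums of 5331 to 6757 and 6403 to 8782. In these 3 lists 0 markers passed the test (limma, with 4, 2 and 3 at an unadjusted p under 0.05, against 17.8% of all genes tested). Red blood cell markers were higher in FF hens, at 3678 to 4043 against 1306 to 1636, of which ALAS2, which starts heme synthesis, made up most. ALAS2 was the single one of 6 to pass, while 0.842% of all genes tested passed as higher. All 6 had a positive log2 fold change (median 1.95), and 5 had an unadjusted p under 0.05 in limma, against 17.8% of all genes tested. Every FF library lay above every RF library in 5 of the 6, against 19.3% of all genes tested. The part of these cells in the values of the 5 genes was not tested.

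The differences of the 5 genes kept their sign and most of their size under every setting tried. These genes were chosen from these same libraries and their groups did not overlap, so leaving out a library could not reverse a sign. The kept signs are therefore no independent support for the differences. Over 14 alternatives the log2 fold change was −1.60 to −1.35 for PTPN13, −1.51 to −1.31 for CORO2B, −1.43 to −1.20 for ANXA11, −1.49 to −1.22 for ENC1 and −1.45 to −1.22 for DMD. Since the FF libraries had the larger totals, rescaling to equal totals gave the lowest value for each of these genes, and it moved the median of all genes tested from 0.01 to −0.13. Standing past a limma adjusted p of 0.05 depended on single libraries. Runs without an FF library, which kept a single FF hen, are not counted for the members. With an RF library left out, the threshold was passed by 4 of the 5 genes (RF replicate 3) or 0 (RF replicate 1 or RF replicate 2). For genes picked from these data this is a description and no test.

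**Figure D5:**
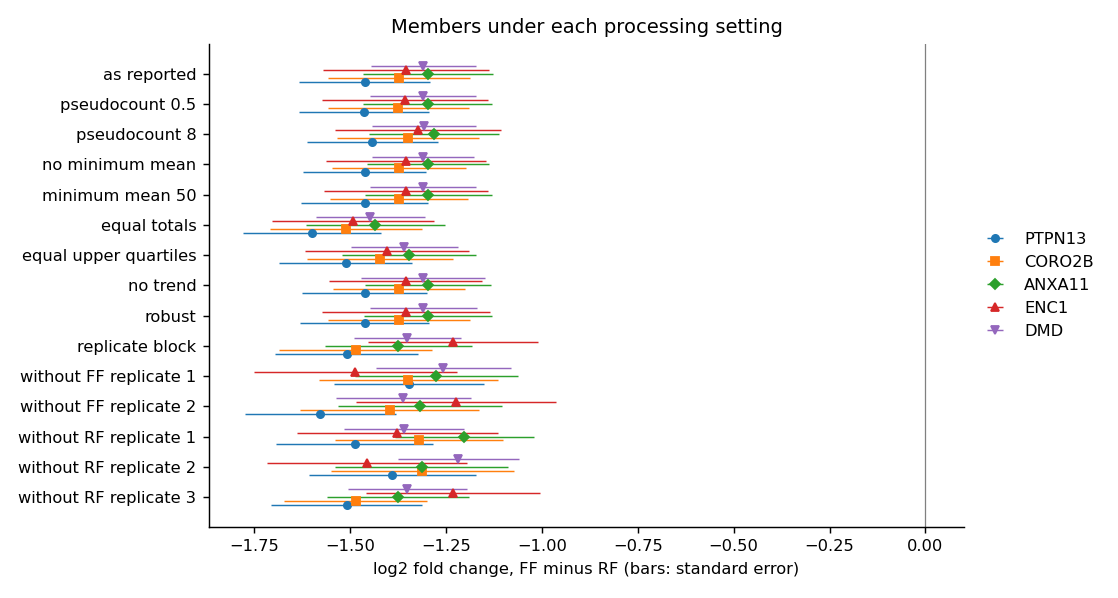
Log2 fold change of FF minus RF with its standard error (x axis) of the 5 genes under the reported processing and under each alternative (y axis). All points lie between −1.60 and −1.20, and those for equal totals lie furthest to the left.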

How the data were processed

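Granulosa cell RNA of 2 FF and 3 RF hens was sequenced from directional, poly(A)-selected libraries. The authors used trim-galore for trimming, STAR for alignment to the galGal6 assembly and DESeq2 for normalization. Their tool versions and read counter are not stated in the sources at hand. The deposited values are normalized counts that the authors rounded, and they were handled as a score, not as a raw read count. In 3 libraries 1 read was worth less than 1 normalized count (0.814 to 0.962), so rounding merged neighbouring read numbers, whole reads were not recovered and no count model was run. Depth was estimated from the gaps and doublings among the low values, a step checked on simulated data, and the counting errors derived from it cover counting only.

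FF and RF libraries were compared by limma 3.58.1 (R 4.3.3) after adding 1 and taking log2. The fit allowed the variance to follow the mean level, had 3 residual degrees of freedom, and adjusted p-values by Benjamini and Hochberg's method across 13305 genes whose mean reached 10. It was tested on simulated data. Its fold changes understate those of low genes. There was 1 library per hen, and since the hens of a diet shared a pen, p-values measure the spread between these libraries.

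The members and lists were chosen with earlier results of these data known, and no test is given for the members. Of 254 genes in the 9 related lists, 214 were matched by symbol and 189 were tested. HBAD and LHX2, of the cell type lists, were matched by an older symbol from RefSeq's GRCg7b table. Genes named are the members, called list genes or otherwise the 2 with the largest change at a mean of at least 200, the 3 genes with symbols nearest to each member in profile, and markers of each cell type list. Some list genes that this rule names are not reported here. Gene lengths were not used, so sums over lists and levels of different genes set side by side are not adjusted for length. Coordinates and sequences are not given here. Plots used matplotlib 3.10.9 (Python 3.11.15).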

Additional observations from a re-analysis of the deposited data

How the results depend on the processing

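Alternatives changed the pseudocount, the minimum mean, the scaling and the variance model, added a block for the replicate number, or left out a library. None changed the sign of a member, but the members were chosen from these same libraries, so this is no independent support. Of 70 such values of the members 1 moved by more than the spread between replicates, that of DMD with equal totals (−1.45). Across all genes, 32 were lower and 112 higher in FF hens. The counts were 1 and 13 with no minimum mean, 0 and 0 in limma without the trend (2188 at an unadjusted p under 0.05), 70 and 90 with equal totals, and 0 to 31 and 1 to 97 without single libraries. Genes higher in FF hens were 77.8% of the calls, and 56.3% with equal totals. Of genes lower past all thresholds, 20 in the report, there were 1 with no minimum mean, 56 with equal totals, 32 with equal upper quartiles, 0 without the trend and 0 to 22 without single libraries. A limma adjusted p under 0.05 was met by 0 of the 5 members with no minimum mean and 0 without the trend. Runs without an FF library are not counted for the members. With an RF library left out, that threshold was met by 4 members (RF replicate 3) or 0 (RF replicate 1 or RF replicate 2). For genes picked from these data this is a description and tests nothing. Of the genes in the related lists, 0 were lower and 0 higher with no minimum mean and without the trend, 5 were higher with a minimum mean of 50, and 0 were lower and 0 to 3 higher without single libraries. With 1 FF library left, its spread is assumed to be that of the RF hens. With no minimum mean 19577 genes were tested, and runs without a library had fewer libraries. The cause of these shifts was not tested.

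The labels number FF and RF libraries alike, but the hens differ, and deviations of same-numbered libraries from their group means correlated at 0.11 for number 1 and −0.07 for number 2 across genes, so the numbers were not read as pairs. With the replicate block 9 genes were lower and 53 higher, and 8 were lower past all thresholds. A limma adjusted p under 0.05 was met by 1 member, and 0 list genes were lower and 1 higher. The comparisons rest on 2 FF and 3 RF hens, and for the members counting error was 1.27% to 7.56%.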
